A study of Mus musculus with 12 samples.

Results

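Collagen chains are the subunits of the collagens, the main structural proteins of the extracellular matrix. The 44 genes described here are the protein-coding genes whose symbol has the form Col, a number, a and a number, out of 78275 gene IDs, 21760 of them protein-coding. They fall into 11 fibrillar chains, 6 basement membrane chains (all type IV), 9 FACIT chains (fibril-associated collagens with interruptions in their helix) and 18 others. The others are 6 chains of type VI, which forms beaded filaments, 3 network-forming chains, 1 chain of anchoring fibrils, 4 transmembrane chains, 2 multiplexins and 2 unclassified chains.

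The cells were C2C12, an established line of mouse myoblasts that withdraws from the cell cycle and fuses into myotubes in low serum. All had been transfected either with si-Zfp143, an siRNA against Zfp143, which encodes the zinc finger transcription factor ZNF143, or with si-Control, a non-targeting siRNA. The induced si-Zfp143 and induced si-Control cells had been moved to medium with 1% horse serum at 24 h after transfection and kept there for 5 days. The uninduced si-Zfp143 and uninduced si-Control cells were harvested at 24 h after transfection from growth medium with 10% fetal bovine serum. Induced and uninduced cells thus differ in both medium and time after transfection. These cannot be told apart in any change with induction or any difference between the states. Each of the 4 groups has 3 libraries of polyadenylated RNA, the labels name 1 batch, and the design asks what the siRNA does before and after myogenic induction. Separate cultures or transfections behind the 3 libraries of a group are not stated, and the p-values cover only the spread between these samples, which may be technical.

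A collagen molecule is wound from chains built of Gly-X-Y units, in which glycine is needed at the centre of the helix. Fibrillar collagens form long uninterrupted rods that pack into fibrils, whereas type IV collagen has interruptions that make it flexible and assembles into the sheet under epithelia and around muscle fibres. FACIT collagens sit on the surface of fibrils, and type VI collagen links the basement membrane of a muscle fibre to the fibrils around it. In muscle, most collagen is known to come from fibroblasts.

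The difference between a rod and an interrupted helix can be read in the coding sequences, of which a fibrillar and a basement membrane stretch are shown because the classes compared here differ in it. Both stretches are 30 codons of the GENCODE vM21 transcripts (GRCm38), 5′ to 3′ in the sense of the gene. Capitals mark the first bases of each glycine codon. The first is codons 254 to 283 of Col3a1 (chromosome 1, plus strand), where all 10 Gly-X-Y units follow without a break. The second is codons 151 to 180 of Col4a1 (chromosome 8, minus strand), which has 9 glycine codons and an interruption that spans 10 codons.
Col3a1: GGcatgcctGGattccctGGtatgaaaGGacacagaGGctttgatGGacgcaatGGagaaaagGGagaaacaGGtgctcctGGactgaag
Col4a1: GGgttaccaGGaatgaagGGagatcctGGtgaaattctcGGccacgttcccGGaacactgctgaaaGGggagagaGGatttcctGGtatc

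Over whole coding sequences the longest unbroken run of Gly-X-Y units had 216 to 344 units in the 11 fibrillar genes, with a median of 338. It had 39 to 66 units in the 6 basement membrane genes, 32 to 113 in the 9 FACIT genes and 37 to 87 in the 6 type VI genes.

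The upstream sequences of Col3a1 and Col8a1 are shown because si-Zfp143 moved these genes in opposite directions in uninduced cells. Each line is the 150 bases before the start of the RefSeq gene (GRCm38.p6), 5′ to 3′ on the strand of the gene, at chr1:45311388-45311537 on the plus strand for Col3a1 and chr16:57754738-57754887 on the minus strand for Col8a1. Capitals mark TATAAA in Col3a1 and CCGCCC, the reverse complement of the GC box GGGCGG, in Col8a1.
Col3a1: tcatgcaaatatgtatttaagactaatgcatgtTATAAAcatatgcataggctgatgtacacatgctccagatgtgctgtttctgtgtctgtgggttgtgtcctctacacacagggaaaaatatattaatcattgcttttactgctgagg
Col8a1: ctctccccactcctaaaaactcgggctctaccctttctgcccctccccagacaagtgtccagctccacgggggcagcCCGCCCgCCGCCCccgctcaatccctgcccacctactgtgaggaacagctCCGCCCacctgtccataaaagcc

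RefSeq promoter windows of 250 bases before to 50 bases after the start were at hand for 35 of the 44 genes and for 27025 genes in all, and both strands were searched. ACTACAA and TTCCCAG, neighbouring pieces of the sequence that ZNF143 is known to bind, were in 0 and 3 collagen windows, or 0% and 8.57%, against 3.78% and 12.7% of all windows. The 3 genes with TTCCCAG were Col18a1, Col6a4 and Col9a2. GGGCGG was in 22 collagen windows (62.9%, against 38.2% of all), CCAAT in 13 (37.1%, against 41.1%), TATAAA in 5 (14.3%, against 15.7%) and the E-box CAGCTG in 7 (20.0%, against 18.3%). None of these motifs contains another. A match describes letters in a window and is not a bound site.

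Library totals lay between 13520906 and 19068323 estimated counts, and counts limit precision only for the rarest chains. Zfp143 (ENSMUSG00000061079.15) had 12.2, 11.9 and 10.1 CPM in uninduced si-Zfp143 libraries, against 23.2, 27.8 and 39.8 CPM in uninduced si-Control libraries (log2 fold change -1.41, SE 0.18; edgeR adjusted p = 6.12e-05). CPM values are counts relative to the library total, scaled between libraries by TMM factors. In induced cells Zfp143 had 14.7, 16.8 and 19.7 CPM with si-Zfp143 and 19.7, 19.3 and 19.3 CPM with si-Control (log2 fold change -0.18, SE 0.18; edgeR adjusted p = 0.646), so a lower level of the target was not detected there. Myogenic markers summed to 3201 to 4114 CPM in induced si-Zfp143 libraries and 7714 to 9610.2 CPM in induced si-Control libraries, and to 579.9 to 642 CPM in uninduced si-Zfp143 libraries and 549 to 576 CPM in uninduced si-Control libraries, where Pax7 and Ckm were at 0. Des and Chrna1 made up most of these uninduced sums, while Myf5 averaged 16.9 CPM with si-Zfp143 and 56.8 CPM with si-Control in uninduced cells. Of 9 tested myogenic markers 1 rose and 2 fell with si-Zfp143 in uninduced cells, beside 15.4% and 17.1% of all genes. In RNA from whole cultures, fewer cells of a type and less RNA per cell cannot be told apart.

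A pair of libraries stood apart from their groups, and both bear on collagens. Induced si-Zfp143 replicate 1, the shallowest library, had a mitochondrial share of 1.95% of counts, while replicates 2 and 3 had 3.44% and 3.47%. It was the highest of its group for 20 of the 26 collagens that averaged at least 1 CPM in its partners, at a median of 1.35 times their mean, where the median over all genes was 0.990. Of all genes at that level, 42.2% were highest and 43.6% lowest in this library. Uninduced si-Control replicate 3 had a mitochondrial share of 6.02%, while replicates 1 and 2 had 2.63% and 2.90%. It was the lowest of its group for 19 of 22 collagens, at a median of 0.668 times the mean of its partners, where the median over all genes was 0.987. Of all genes at that level, 44.0% were lowest and 42.7% highest in this library, so both libraries stood apart well beyond collagens. Transcripts of uninduced si-Control replicate 3 also averaged 2594 effective bases, against 3038 and 3118 in replicates 1 and 2. Results were therefore also computed without both.

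Taken over all chains, collagen transcripts were far more abundant after induction. They summed to 7459, 5440 and 5920 TPM in induced si-Zfp143 libraries and 6730, 6534 and 7032 TPM in induced si-Control libraries, with 554, 523 and 593 TPM in uninduced si-Zfp143 libraries and 864, 796 and 401 TPM in uninduced si-Control libraries. TPM is corrected for transcript length and is the scale used here to compare one gene with another. Every induced library was above every uninduced one, while with either medium the si-Zfp143 and si-Control libraries overlapped. The number of chains averaging at least 1 TPM was 22 in induced cells with either siRNA, 18 in uninduced si-Zfp143 cells and 17 in uninduced si-Control cells. At least 100 TPM were reached by 10 chains in induced cells with either siRNA and by 2 in uninduced cells with either siRNA.

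**Figure D1:**
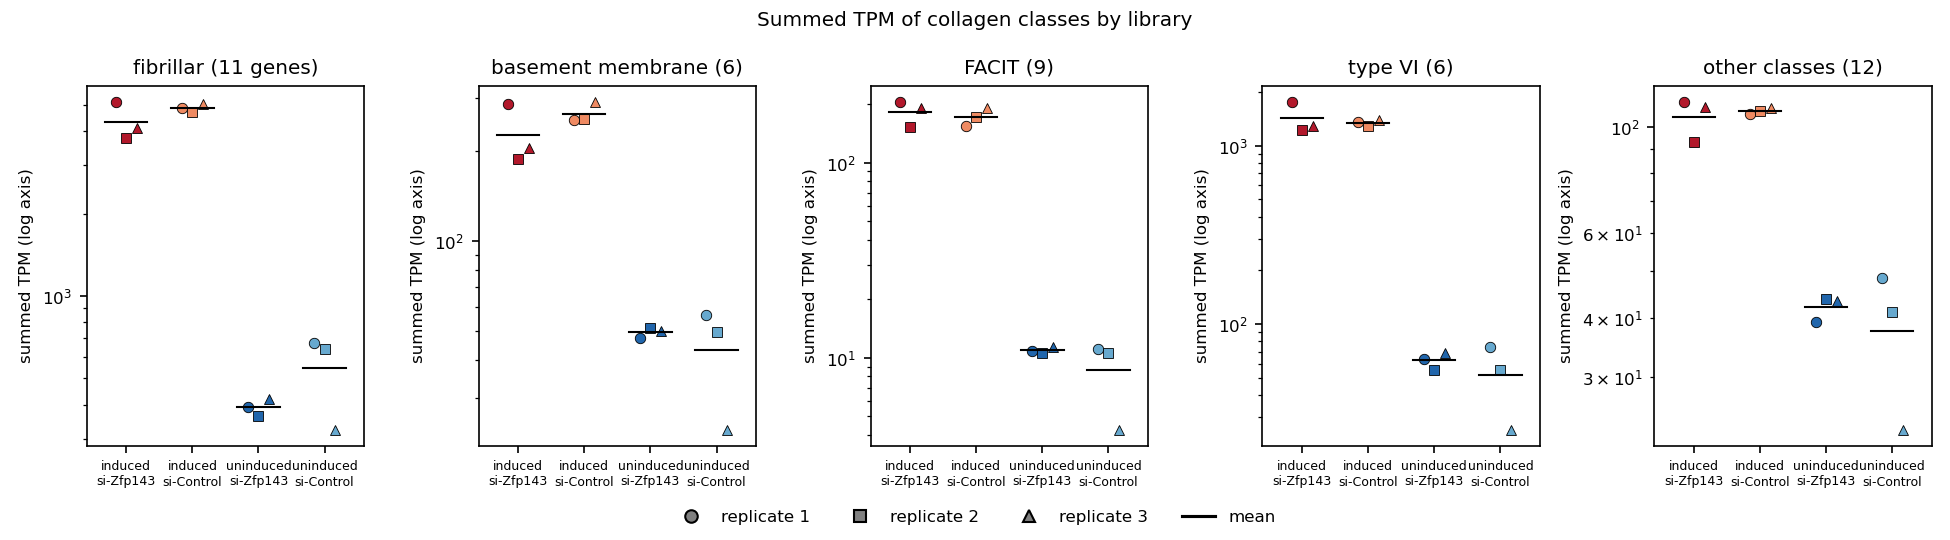
Summed TPM of each collagen class in the 12 libraries (log axes), with symbols for replicates and bars for group means. Every class was higher in all 6 induced libraries than in all 6 uninduced ones, and uninduced si-Control replicate 3 was the lowest of its group in every class.

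The make-up of this pool shifted as well. Fibrillar chains held 68.4 to 69.7% of collagen TPM in induced si-Zfp143 libraries and 71.7 to 72.1% in induced si-Control libraries, with 69.4 to 70.8% in uninduced si-Zfp143 libraries and 78.0 to 80.9% in uninduced si-Control libraries. Type VI chains held 21.8 to 23.5% in induced si-Zfp143 libraries and 19.7 to 20.2% in induced si-Control libraries, with 10.5 to 11.6% in uninduced si-Zfp143 libraries and 6.39 to 8.56% in uninduced si-Control libraries. Thus the type VI share was higher with induction under either siRNA and higher with si-Zfp143 in either medium, with no overlap between the groups compared. The summed TPM of type VI did overlap between the siRNAs. It was 1229 to 1753 with si-Zfp143 and 1286 to 1399 with si-Control in induced cells, and 55.0 to 68.8 and 25.6 to 74.0 in uninduced cells. In uninduced cells Col3a1 held 20.7 to 22.9% of collagen TPM with si-Zfp143 and 37.2 to 39.7% with si-Control. Basement membrane chains held 3.44 to 3.85% in induced si-Zfp143 libraries and 3.77 to 4.12% in induced si-Control libraries, which overlapped, with 8.45 to 9.78% in uninduced si-Zfp143 libraries and 5.86 to 6.54% in uninduced si-Control libraries, which did not. Their summed TPM overlapped in uninduced cells, at 47.5 to 51.2 with si-Zfp143 and 23.5 to 56.5 with si-Control. Exact permutation tests of 3 against 3 libraries cannot go below p = 0.1, so these shares are given as ranges.

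The most abundant chain by mean TPM was Col3a1 in 3 groups, and Col1a2 in uninduced si-Zfp143 cells. In induced cells Col3a1, Col1a2 and Col6a1 led in that order with either siRNA, at means of 2525, 1130 and 908 TPM with si-Zfp143 and 2952, 1175 and 918 TPM with si-Control. In uninduced si-Zfp143 cells the order was Col1a2, Col3a1 and Col5a2 at 143, 122 and 88.0 TPM, whereas in uninduced si-Control cells it was Col3a1, Col1a2 and Col5a2 at 265, 172 and 72.1 TPM. The ranges of Col3a1 and Col1a2 overlapped in uninduced cells with either siRNA, and those of Col1a2 and Col6a1 in induced si-Zfp143 cells, while within each library the order was that of the group means.

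Of the 44 chains, 30 had enough counts to be tested. The 14 others are Col9a1, Col13a1, Col22a1 and Col25a1, with 0 counts in every library, and Col4a3, Col6a5, Col6a6, Col9a2, Col11a1, Col14a1, Col15a1, Col19a1, Col23a1 and Col26a1, none of which passed 0.340 TPM in a library or 52 counts over the 12 libraries.

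Induction, which takes in both the medium and the added 5 days, was the larger contrast. With si-Control 25 of 30 chains rose and 2 fell, beside 33.2% and 30.9% of the 15030 genes tested that rose or fell, 64.1% in all (edgeR, adjusted p under 0.05). With si-Zfp143 21 rose and 5 fell, beside 36.0% and 30.1% of all genes. The median log2 fold change of the 30 chains was 2.34 with si-Zfp143, against 0.10 over all genes. With si-Control it was 2.7, or 2.40 with 2 chains at their lower bound, against 0.03 over all genes. The same 21 chains rose under both siRNAs, and Col18a1 and Col4a4 fell under both.

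By class, 8 of 10 tested fibrillar chains rose and 2 fell with si-Zfp143, and 9 rose and 0 fell with si-Control. Of 5 basement membrane chains 4 rose and 1 fell under either siRNA, and of 4 FACIT chains 2 rose and 0 fell under either. Of the 11 others 7 rose and 2 fell with si-Zfp143, and 10 rose and 1 fell with si-Control. Col11a2 and Col7a1 rose with si-Control and fell with si-Zfp143. These induction comparisons share no library with each other, but the comparisons of the siRNAs use the same 12 libraries in other pairs.

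**Figure D2:**
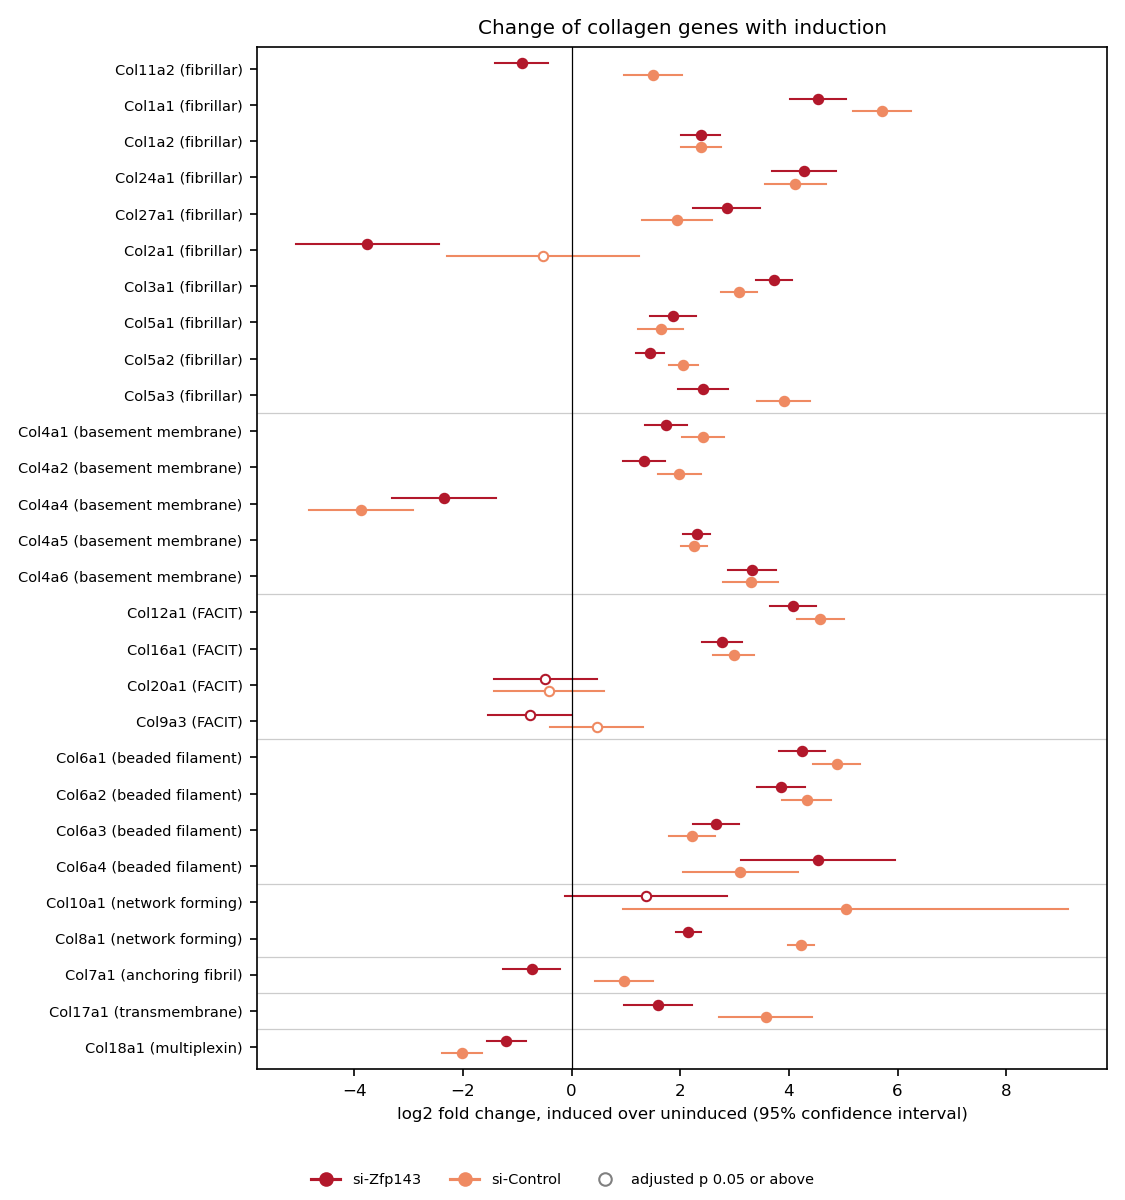
Log2 fold change of induced over uninduced cells with its 95% confidence interval for 28 tested collagen genes, with si-Zfp143 and with si-Control; filled points have an adjusted p under 0.05. Most points lie right of 0, with Col18a1 and Col4a4 left of it under both siRNAs; Col8a2 and Col28a1 are left out because they had no counts in uninduced si-Control cells.

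In uninduced cells si-Zfp143 raised 11 chains and lowered 2 of the 30, beside 15.4% of all genes raised and 17.1% lowered. The chains that rose were Col2a1, Col5a2, Col5a3 and Col11a2 (fibrillar), Col4a6 (basement membrane), Col9a3 (FACIT), Col6a2 (type VI), Col8a1 and Col10a1 (network forming), Col7a1 (anchoring fibril) and Col17a1 (transmembrane). Col3a1 and Col4a4 fell. The median log2 fold change was 0.40 over 28 chains, against -0.04 over all genes, leaving out Col8a2 and Col28a1, which were under the floor of 3 counts per library in both groups. Without uninduced si-Control replicate 3, which was low for most collagens, 9 chains rose and 5 fell: Col10a1 and Col6a2 left the higher calls, and Col5a1, Col6a3 and Col6a4 joined the lower ones. Without uninduced si-Control replicate 2 the higher calls numbered 7. Without both libraries that stand apart 14 rose and 6 fell: Col4a2, Col6a1 and Col16a1 joined the higher calls, and Col1a2, Col5a1, Col6a3 and Col6a4 the lower ones. The mean effective transcript length was 2511 to 2728 bases in uninduced si-Zfp143 libraries and 2594 to 3118 bases in uninduced si-Control libraries. With the effective length of each gene in each library as an offset, 14 chains rose and 2 fell. The 15.4% and 17.1% of all genes go with the first counts, and the shares in these alternative runs are not given here.

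In induced cells the siRNA changed few chains. Col27a1, Col4a6 and Col18a1 rose and Col8a2 fell with si-Zfp143, that is 3 and 1 of 30, beside 3.73% and 5.77% of all genes (9.49% in either direction). The median log2 fold change was -0.01, against -0.03 over all genes. Without both libraries that stand apart, 3 chains rose and 8 fell, the added ones being Col1a1, Col3a1, Col4a1, Col4a2, Col5a1, Col5a2 and Col7a1 with log2 fold changes between -0.81 (Col1a1) and -0.26 (Col5a2). The 3.73% and 5.77% of all genes belong to the fit with these libraries, and the shares without them are not given here. Col4a6 was the single chain called with si-Zfp143 in both states.

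**Figure D3:**
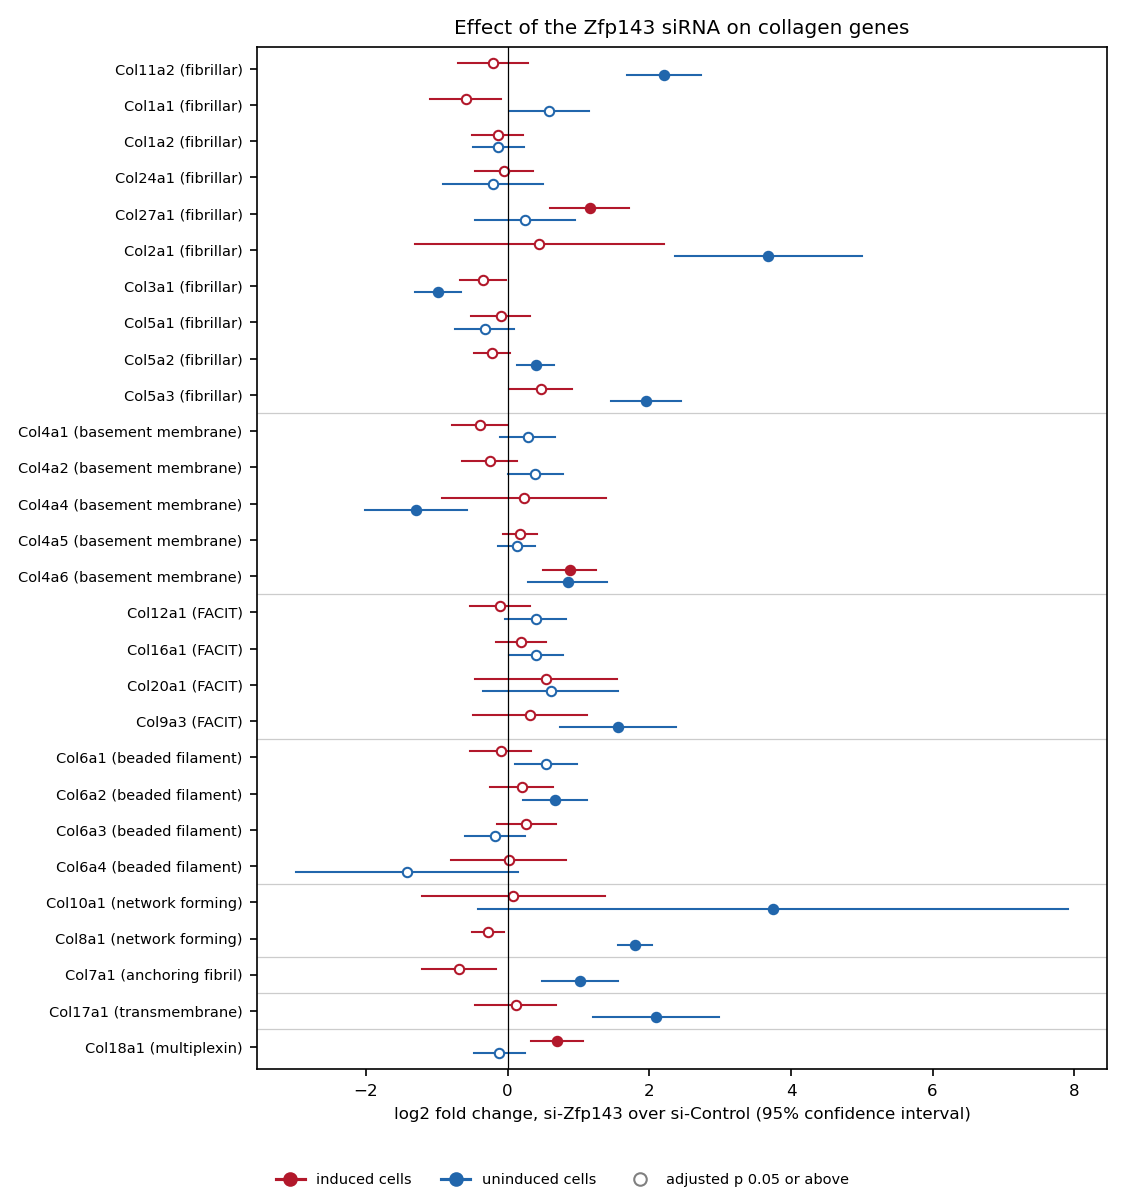
Log2 fold change of si-Zfp143 over si-Control with its 95% confidence interval for 28 tested collagen genes, in induced and uninduced cells; filled points have an adjusted p under 0.05. Points of uninduced cells spread to both sides of 0 with Col2a1, Col11a2, Col17a1, Col5a3, Col8a1 and Col10a1 near or above 2 and a wide interval for Col10a1 that includes 0, while the points shown for induced cells stay closer to 0. Col8a2 and Col28a1 are left out because they had no counts in uninduced si-Control cells. In induced cells their log2 fold changes were -1.10 and -1.50.

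Col3a1 and Col1a2, of types III and I, were the most abundant fibrillar chains. Col3a1 (ENSMUSG00000026043.19) encodes the chain of type III collagen, which forms thin fibrils in pliable tissue. Col3a1 had 8323, 7069 and 7592 CPM in induced si-Zfp143 libraries and 10263, 9548 and 9411 CPM in induced si-Control libraries, with 592, 505 and 647 CPM in uninduced si-Zfp143 libraries and 1219, 1249.9 and 981 CPM in uninduced si-Control libraries. The groups did not overlap in any comparison, with the uninduced si-Zfp143 libraries lowest. Col3a1 fell with si-Zfp143 in uninduced cells (log2 fold change -0.98, SE 0.15; edgeR adjusted p = 0.000282), and it rose with induction under si-Zfp143 (log2 fold change 3.72, SE 0.15; edgeR adjusted p = 1.02e-10) and under si-Control (log2 fold change 3.08, SE 0.15; edgeR adjusted p = 4.42e-10). In induced cells the difference did not pass the test (log2 fold change -0.35, SE 0.15; edgeR adjusted p = 0.215), but it did without both libraries that stand apart (log2 fold change -0.41; edgeR adjusted p = 0.00712).

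Col1a2 (ENSMUSG00000029661.17) and Col1a1 (ENSMUSG00000001506.11) encode the chains of type I collagen, the main fibre of bone, tendon and skin. Col1a2 had 3528, 2798 and 2862 CPM in induced si-Zfp143 libraries and 3498, 3344 and 3269.7 CPM in induced si-Control libraries, with 597, 534 and 639 CPM in uninduced si-Zfp143 libraries and 768, 683 and 486 CPM in uninduced si-Control libraries. Induced and uninduced libraries were far apart, and the siRNAs overlapped in each state. Without both libraries that stand apart Col1a2 was lower with si-Zfp143 in uninduced cells (log2 fold change -0.30; edgeR adjusted p = 0.0115). Col1a2 rose by 2.38 (SE 0.17) on the log2 scale with induction under si-Zfp143 and by 2.38 (SE 0.17) under si-Control. Col1a1 had 444, 294 and 298 CPM in induced si-Zfp143 libraries and 586, 512 and 462 CPM in induced si-Control libraries, with 18.0, 10.98 and 15.7 CPM in uninduced si-Zfp143 libraries and 14.0, 9.38 and 6.24 CPM in uninduced si-Control libraries. In induced cells all si-Zfp143 libraries were below all si-Control ones, and in uninduced cells they overlapped. Col1a1 rose with induction more than any other tested fibrillar chain, with si-Zfp143 (log2 fold change 4.54, SE 0.25; edgeR adjusted p = 2.26e-09) and with si-Control (log2 fold change 5.71, SE 0.25; edgeR adjusted p = 2.62e-10). Its siRNA effect did not pass the test in induced cells (log2 fold change -0.59, SE 0.23; edgeR adjusted p = 0.16) or uninduced cells (log2 fold change 0.59, SE 0.26; edgeR adjusted p = 0.0995). It passed in induced cells without both libraries that stand apart (log2 fold change -0.81; edgeR adjusted p = 0.0049) and without the filter on low counts (log2 fold change -0.59; edgeR adjusted p = 0.00451), and in uninduced cells without that filter (log2 fold change 0.57; edgeR adjusted p = 0.00782). With the replicate number as a block in the model it passed in induced cells (log2 fold change -0.61, edgeR adjusted p = 0.027) and in uninduced cells (log2 fold change 0.62, edgeR adjusted p = 0.0194). Without uninduced si-Control replicate 1 it also passed in uninduced cells (log2 fold change 0.93, edgeR adjusted p = 0.013).

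Type V chains are minor partners that set the width of type I fibrils. Col5a2 (ENSMUSG00000026042.17) was the most abundant of them. Col5a2 had 1422, 1269 and 1371 CPM in induced si-Zfp143 libraries and 1614, 1547 and 1574 CPM in induced si-Control libraries, with 522, 469 and 502 CPM in uninduced si-Zfp143 libraries and 346, 386 and 404 CPM in uninduced si-Control libraries. The siRNA groups did not overlap in either state, in opposite directions. Col5a2 rose with si-Zfp143 in uninduced cells by a small amount (log2 fold change 0.39, SE 0.12; edgeR adjusted p = 0.022), a call lost without uninduced si-Zfp143 replicate 1 or 3 or uninduced si-Control replicate 1 or 2 (edgeR adjusted p = 0.0907, 0.0742, 0.0767 and 0.0526) and without the filter on low counts (0.0951). In induced cells Col5a2 was lower with si-Zfp143 without both libraries that stand apart (log2 fold change -0.26; edgeR adjusted p = 0.0479). Col5a3 (ENSMUSG00000004098.8), the least abundant type V chain, moved far more. Col5a3 had 239, 132 and 155 CPM in induced si-Zfp143 libraries and 137, 118 and 125 CPM in induced si-Control libraries, with 35.0, 28.5 and 34.7 CPM in uninduced si-Zfp143 libraries and 9.89, 9.71 and 5.58 CPM in uninduced si-Control libraries. All uninduced si-Zfp143 libraries exceeded all uninduced si-Control ones, whereas the induced groups overlapped. Col5a3 rose with si-Zfp143 in uninduced cells (log2 fold change 1.95, SE 0.23; edgeR adjusted p = 2.53e-05) and with induction by 2.42 (SE 0.21) under si-Zfp143 and 3.90 (SE 0.23) under si-Control. Col5a1 had 151, 154 and 165 CPM in uninduced si-Zfp143 libraries, against 227, 228 and 134 CPM in uninduced si-Control libraries, where replicate 3 was low. Its effect did not pass the test (log2 fold change -0.33, SE 0.20; edgeR adjusted p = 0.227), and without that replicate it passed at -0.53 (edgeR adjusted p = 0.0108).

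Types XI and II are known as cartilage collagens, and here Col11a2 and Col2a1 stood highest in uninduced si-Zfp143 cells. Col11a2 had 14.9, 9.55 and 8.11 CPM in induced si-Zfp143 libraries and 14.7, 9.17 and 13.54 CPM in induced si-Control libraries, with 23.6, 17.2 and 20.4 CPM in uninduced si-Zfp143 libraries and 5.27, 3.79 and 4.14 CPM in uninduced si-Control libraries. Col11a2 (ENSMUSG00000024330.18) was thus above si-Control in all uninduced libraries, while the induced groups overlapped. It rose with si-Zfp143 in uninduced cells (log2 fold change 2.21, SE 0.24; edgeR adjusted p = 1.49e-05). With induction it fell under si-Zfp143 (log2 fold change -0.92, SE 0.23; edgeR adjusted p = 0.00272) and rose under si-Control (log2 fold change 1.501, SE 0.25; edgeR adjusted p = 8.37e-05). Col2a1 had 1.998, 2.72 and 1.47 CPM in uninduced si-Zfp143 libraries, against 0.163, 0.165 and 0.131 CPM in uninduced si-Control libraries, and no induced library passed 0.211 CPM. Col2a1 rose with si-Zfp143 in uninduced cells, from a level near the floor in si-Control cells (log2 fold change 3.68, SE 0.62; edgeR adjusted p = 0.000164). Of the chondrocyte markers, which summed to 52.0 to 55.4 CPM in uninduced si-Zfp143 libraries and 26.3 to 36.0 CPM in uninduced si-Control libraries, most was Sox9, a cartilage regulator. Acan, Comp, Matn1, Hapln1 and Snorc had no counts in uninduced si-Control libraries, and Matn1, Cnmd and Snorc none in uninduced si-Zfp143 libraries. All libraries came from C2C12 cultures, and whether some of their cells took on cartilage features was not tested.

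Col27a1 (ENSMUSG00000045672.16) and Col24a1 belong to a branch of fibrillar chains known from cartilage and bone. Col27a1 had 25.2, 12.5 and 14.6 CPM in induced si-Zfp143 libraries and 7.65, 6.64 and 9.02 CPM in induced si-Control libraries, with 2.97, 1.54 and 2.66 CPM in uninduced si-Zfp143 libraries and 1.90, 2.47 and 1.64 CPM in uninduced si-Control libraries. Every induced si-Zfp143 library exceeded every induced si-Control library, with replicate 1, a library that stands apart, highest. Col27a1 rose with si-Zfp143 in induced cells (log2 fold change 1.16, SE 0.26; edgeR adjusted p = 0.00972). The call held without both libraries that stand apart, at a log2 fold change of 0.80, and was lost without induced si-Control replicate 2 (edgeR adjusted p = 0.0651). Col24a1 had 14.2, 13.7 and 14.9 CPM in induced si-Zfp143 libraries and 13.7, 14.4 and 16 CPM in induced si-Control libraries, and no uninduced library passed 1.15 CPM. It rose with induction by 4.28 (SE 0.27) under si-Zfp143 and 4.12 (SE 0.27) under si-Control, and its siRNA effects did not pass the test.

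**Figure D4:**
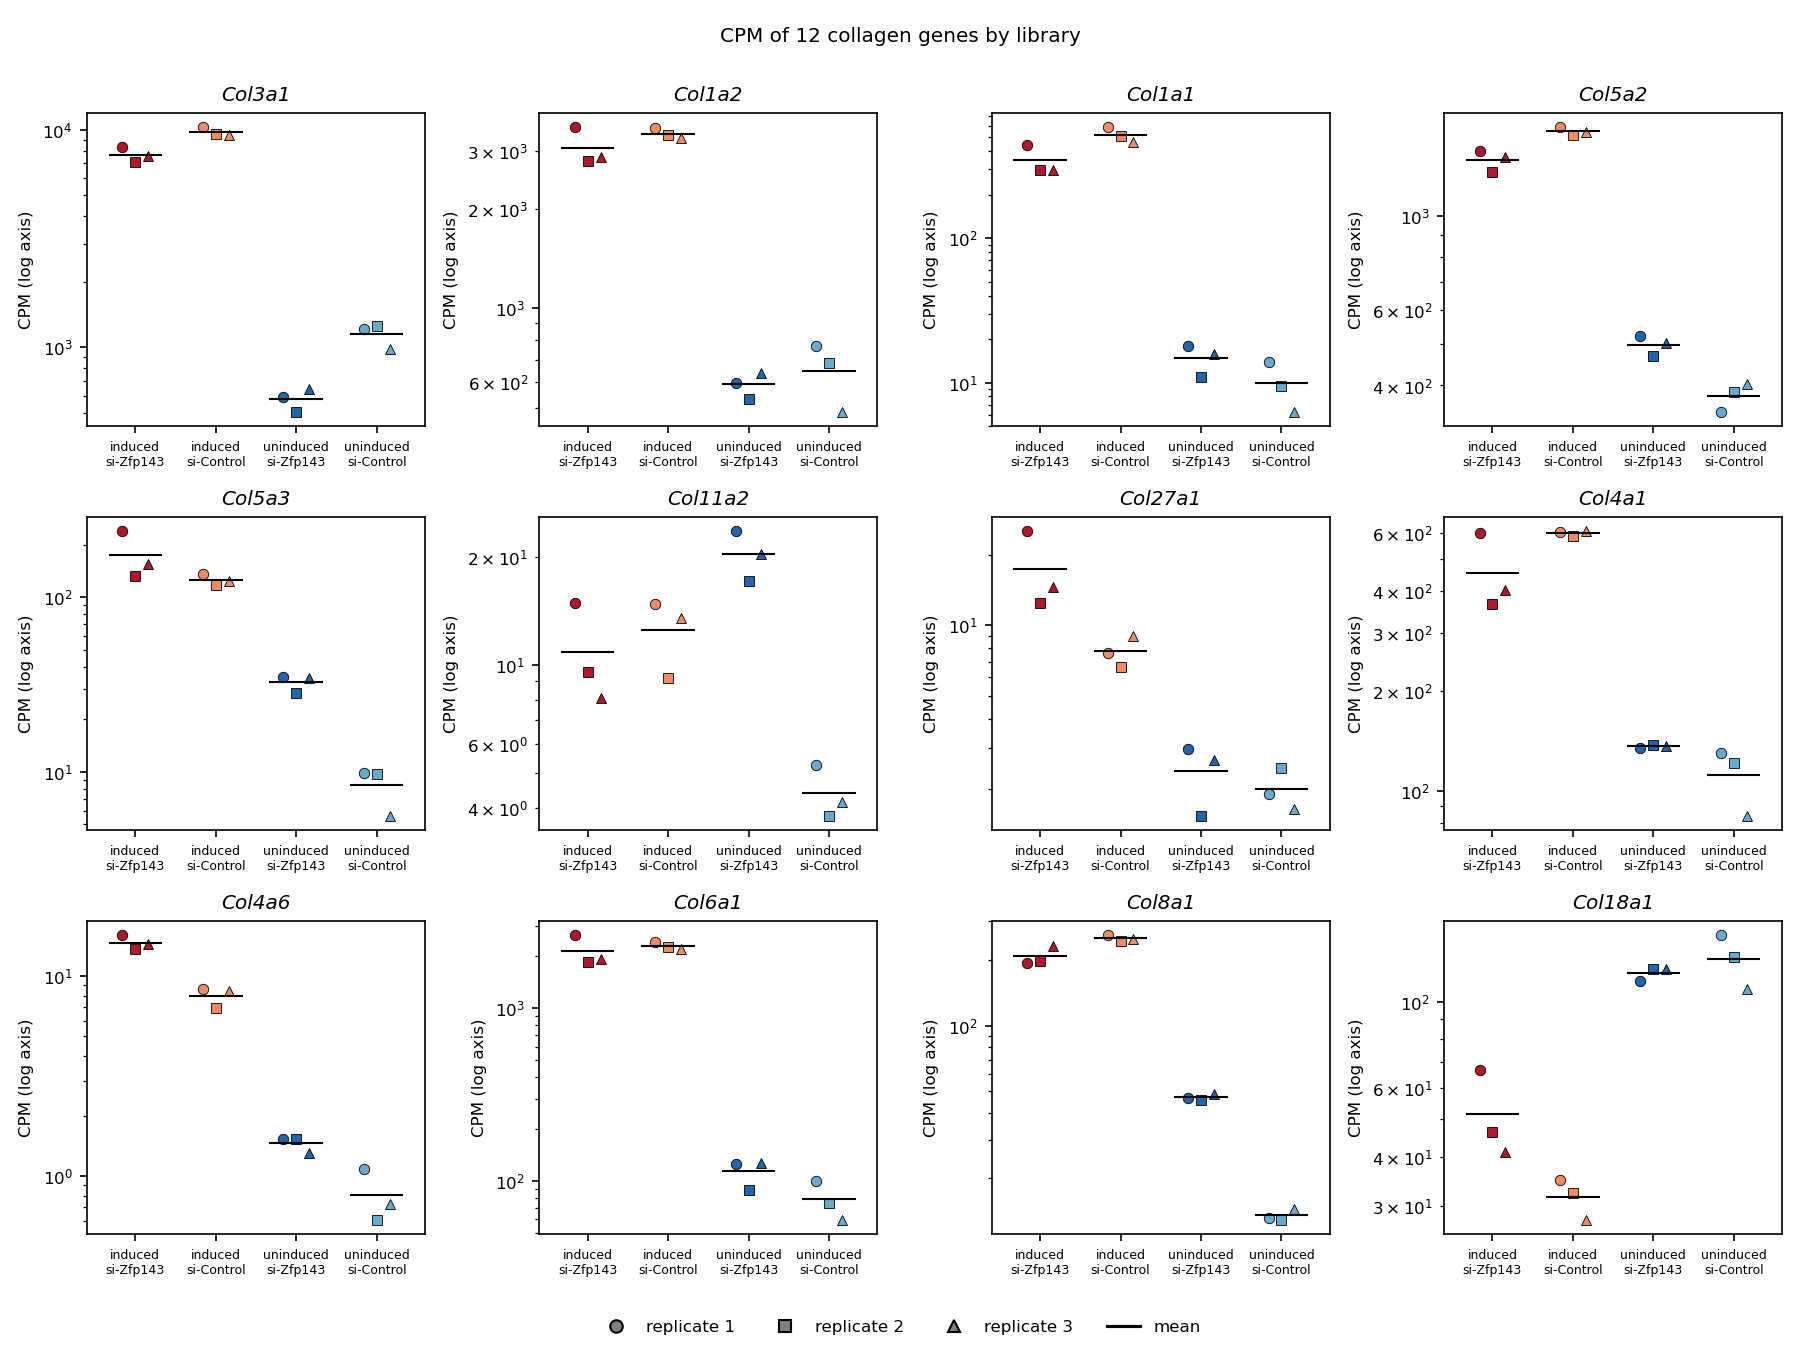
CPM of 12 collagen genes in each library (log axes), with symbols for replicates and bars for group means. Col3a1 was lowest and Col11a2 highest in uninduced si-Zfp143 libraries, Col5a3 and Col8a1 were above si-Control in all uninduced si-Zfp143 libraries, and Col18a1 was lower in every induced library than in any uninduced one.

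Basement membrane chains rose with induction in 4 of 5 cases. Col4a1 (ENSMUSG00000031502.12) and Col4a2 (ENSMUSG00000031503.14) encode the common type IV chains and lie head to head in the genome. The libraries were not strand-specific, per the labels, and reads of any stretch that both genes share could not be told apart. Col4a1 had 599, 366 and 403 CPM in induced si-Zfp143 libraries and 604, 589 and 607 CPM in induced si-Control libraries, with 135, 138 and 137 CPM in uninduced si-Zfp143 libraries and 131, 122 and 84.2 CPM in uninduced si-Control libraries. Col4a2 had 434, 269 and 283 CPM in induced si-Zfp143 libraries and 387, 398 and 391 CPM in induced si-Control libraries, with 128, 129 and 133 CPM in uninduced si-Zfp143 libraries and 117, 106 and 74.4 CPM in uninduced si-Control libraries. Induced si-Zfp143 replicate 1 was level with si-Control for Col4a1 and above it for Col4a2, whereas replicates 2 and 3 were below. Col4a1 rose with induction by 1.74 (SE 0.18) under si-Zfp143 and 2.42 (SE 0.18) under si-Control. Its difference between siRNAs in induced cells did not pass the test (log2 fold change -0.40, SE 0.18; edgeR adjusted p = 0.232), but passed without induced si-Zfp143 replicate 1 at -0.64 (edgeR adjusted p = 0.0197). Col4a2 also passed in induced cells without both libraries that stand apart (log2 fold change -0.50; edgeR adjusted p = 0.000125), and in uninduced cells it was then higher with si-Zfp143 (log2 fold change 0.22; edgeR adjusted p = 0.03).

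Col4a5 (ENSMUSG00000031274.17) and Col4a6 (ENSMUSG00000031273.17), also arranged head to head, encode chains of smooth muscle and other specialised basement membranes. Col4a5 had 78.1, 74.8 and 72.7 CPM in induced si-Zfp143 libraries and 64.0, 63.9 and 71.3 CPM in induced si-Control libraries, with 13.4, 15.6 and 16.6 CPM in uninduced si-Zfp143 libraries and 14.2, 14.0 and 13.6 CPM in uninduced si-Control libraries. Induced libraries were high and uninduced ones low. In induced cells si-Zfp143 libraries were all above si-Control ones by a small margin that did not pass the test (log2 fold change 0.18, SE 0.11; edgeR adjusted p = 0.42). Col4a6 had 16.01, 13.7 and 14.5 CPM in induced si-Zfp143 libraries and 8.59, 6.96 and 8.45 CPM in induced si-Control libraries, with 1.54, 1.54 and 1.30 CPM in uninduced si-Zfp143 libraries and 1.09, 0.604 and 0.723 CPM in uninduced si-Control libraries. Every si-Zfp143 library exceeded every si-Control library of the same state. Col4a6 rose with si-Zfp143 in induced cells (log2 fold change 0.88, SE 0.17; edgeR adjusted p = 0.00386) and in uninduced cells (log2 fold change 0.85, SE 0.26; edgeR adjusted p = 0.0206). The call in uninduced cells was lost without uninduced si-Zfp143 replicate 1 or 2 or uninduced si-Control replicate 2 (edgeR adjusted p = 0.0653, 0.0534 and 0.101), and with limma-voom (0.0588), without the filter on low counts (0.0664) and with only the groups compared in the model (0.0864). No alternative run ended the call in induced cells. Col4a4, a chain of kidney basement membrane, ran the other way from its class. It had 0.266, 0.347 and 0.250 CPM in induced si-Zfp143 libraries, 0.364, 0.158 and 0.210 CPM in induced si-Control libraries, 1.54, 1.65 and 1.30 CPM in uninduced si-Zfp143 libraries and 4.46, 4.5 and 2.04 CPM in uninduced si-Control libraries. Col4a4 fell with si-Zfp143 in uninduced cells (log2 fold change -1.29, SE 0.33; edgeR adjusted p = 0.00846) and with induction by 2.35 (SE 0.45) under si-Zfp143 and 3.88 (SE 0.45) under si-Control.

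FACIT chains were led by Col12a1 (ENSMUSG00000032332.18), which decorates type I fibrils in tendon and muscle. Col12a1 had 887, 794 and 1014 CPM in induced si-Zfp143 libraries and 855, 999 and 1052 CPM in induced si-Control libraries, with 54.8, 46.1 and 58.9 CPM in uninduced si-Zfp143 libraries and 46.5, 49.2 and 25.8 CPM in uninduced si-Control libraries. Induced libraries exceeded uninduced ones by more than the spread, and the siRNAs overlapped in both states. Col12a1 rose with induction under si-Zfp143 (log2 fold change 4.08, SE 0.20; edgeR adjusted p = 7.83e-10) and under si-Control (log2 fold change 4.58, SE 0.20; edgeR adjusted p = 2.18e-10). Col16a1 had 165, 108 and 102 CPM in induced si-Zfp143 libraries and 119, 103 and 106 CPM in induced si-Control libraries, with 18.0, 18.0 and 19.0 CPM in uninduced si-Zfp143 libraries and 16.1, 13.9 and 11.4 CPM in uninduced si-Control libraries. Col16a1 (ENSMUSG00000040690.16), a minor fibril-associated chain, likewise rose by 2.77 (SE 0.17) under si-Zfp143 and 2.98 (SE 0.18) under si-Control. Without both libraries that stand apart it was higher with si-Zfp143 in uninduced cells (log2 fold change 0.28; edgeR adjusted p = 0.0414). Col9a3, a partner of type II collagen in cartilage, was rare. Col9a3 had 1.20, 1.29 and 1.05 CPM in induced si-Zfp143 libraries and 0.937, 1.11 and 0.787 CPM in induced si-Control libraries, with 2.05, 2.36 and 1.64 CPM in uninduced si-Zfp143 libraries and 0.924, 0.823 and 0.263 CPM in uninduced si-Control libraries. It rose with si-Zfp143 in uninduced cells (log2 fold change 1.55, SE 0.38; edgeR adjusted p = 0.00582) and did not pass the test with induction under either siRNA. Under si-Zfp143 its induced libraries were all below the uninduced ones. There it passed as lower with the transcript length offset (log2 fold change -0.86, edgeR adjusted p = 0.0452) and with only the groups compared in the model (log2 fold change -0.79, edgeR adjusted p = 0.0327). Col20a1 passed no test, and the 5 other FACIT chains were not tested.

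The type VI chains Col6a1 (ENSMUSG00000001119.8), Col6a2 (ENSMUSG00000020241.14) and Col6a3 (ENSMUSG00000048126.17) assemble together in equal numbers into the beaded filaments whose loss causes a congenital muscle disease. Col6a1 had 2651, 1859 and 1944 CPM in induced si-Zfp143 libraries and 2423, 2274 and 2216 CPM in induced si-Control libraries, with 126, 89.0 and 127 CPM in uninduced si-Zfp143 libraries and 101, 74.9 and 59.5 CPM in uninduced si-Control libraries. Col6a2 had 1187, 813 and 791 CPM in induced si-Zfp143 libraries and 843, 809.8 and 777 CPM in induced si-Control libraries, with 63.4, 55.7 and 73.6 CPM in uninduced si-Zfp143 libraries and 54.0, 39.2 and 28.0 CPM in uninduced si-Control libraries. Col6a3 had 731, 550.2 and 566 CPM in induced si-Zfp143 libraries and 468, 539 and 532 CPM in induced si-Control libraries, with 99.5, 97.6 and 94.0 CPM in uninduced si-Zfp143 libraries and 138, 121 and 69.6 CPM in uninduced si-Control libraries. All were high after induction, induced si-Zfp143 replicate 1 was highest of its group for each, and uninduced si-Control replicate 3 was lowest for each. Col6a1 rose with induction by 4.24 (SE 0.20) under si-Zfp143 and 4.88 (SE 0.20) under si-Control, Col6a2 by 3.86 (SE 0.21) and 4.32 (SE 0.21), and Col6a3 by 2.67 (SE 0.20) and 2.22 (SE 0.20).

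With si-Zfp143 in uninduced cells Col6a2 rose (log2 fold change 0.67, SE 0.21; edgeR adjusted p = 0.0265), a call lost without uninduced si-Zfp143 replicate 1 or 3 or uninduced si-Control replicate 2 or 3 (edgeR adjusted p = 0.0648, 0.113, 0.0763 and 0.0519). Col6a1 did not pass the test (log2 fold change 0.54, SE 0.20; edgeR adjusted p = 0.0542) but passed under several alternatives, for example with the transcript length offset (edgeR adjusted p = 0.0347) and without both libraries that stand apart (log2 fold change 0.38; edgeR adjusted p = 0.0483). Col6a3 and Col6a4 did not pass, at log2 fold changes of -0.18 (SE 0.20) and -1.42 (SE 0.74). Without uninduced si-Control replicate 3 both were lower with si-Zfp143, at log2 fold changes of -0.41 and -1.88 (edgeR adjusted p = 0.0185 and 0.0168). Col6a4, a chain related to Col6a3, reached at most 5.45 CPM and rose with induction by 4.54 (SE 0.66) under si-Zfp143 and 3.11 (SE 0.50) under si-Control.

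Network-forming chains build the hexagonal sheets found beneath endothelia and in growing cartilage. Col8a1 had 194, 198 and 232 CPM in induced si-Zfp143 libraries and 259, 245 and 250.2 CPM in induced si-Control libraries, with 46.8, 45.6 and 48.7 CPM in uninduced si-Zfp143 libraries and 13.2, 12.9 and 14.5 CPM in uninduced si-Control libraries. In uninduced cells the si-Zfp143 libraries of Col8a1 (ENSMUSG00000068196.6) were all above the si-Control ones. It rose with si-Zfp143 in uninduced cells (log2 fold change 1.80, SE 0.11; edgeR adjusted p = 8.43e-08), and this call held under every alternative run. In induced cells all si-Zfp143 libraries were below all si-Control libraries, by an amount that did not pass the test (log2 fold change -0.27, SE 0.11; edgeR adjusted p = 0.151). Induction raised it by 2.15 (SE 0.11) under si-Zfp143 and 4.22 (SE 0.11) under si-Control.

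Col8a2 (ENSMUSG00000056174.9) encodes the partner chain of type VIII collagen and had 1 count in all over the 6 uninduced libraries. Col8a2 had 4.45, 3.42 and 3.75 CPM in induced si-Zfp143 libraries and 9.47, 7.69 and 7.71 CPM in induced si-Control libraries, with 0, 0.0590 and 0 CPM in uninduced si-Zfp143 libraries and 0, 0 and 0 CPM in uninduced si-Control libraries. It fell with si-Zfp143 in induced cells (log2 fold change -1.10, SE 0.24; edgeR adjusted p = 0.0101), with no overlap between the siRNAs, and the call was lost without induced si-Zfp143 replicate 2 or induced si-Control replicate 1 (edgeR adjusted p = 0.0596 and 0.0681). With induction under si-Zfp143 its summed counts stood at a ratio of 199 (95% counting interval 35.4 to 7906). Under si-Control the induced cells were at least 47.4-fold higher, with 3 counts per library taken as the floor. Col10a1, the collagen of hypertrophic cartilage, had 0, 0.413 and 0.622 CPM in uninduced si-Zfp143 libraries, against 0.0543, 0 and 0 CPM in uninduced si-Control libraries, where it had 1 count in all. Its summed counts stood at a ratio of 17.9 (95% counting interval 2.83 to 746; edgeR adjusted p = 0.0316), and the call was lost with limma-voom (adjusted p = 0.145) and when uninduced si-Zfp143 replicate 2 or 3 or uninduced si-Control replicate 2 or 3 was left out (edgeR adjusted p = 0.0694, 0.143, 0.101 and 0.063). With only the groups compared in the model Col10a1 had too few counts to be tested. Intervals from counts cover counting error only.

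Among the remaining chains, Col18a1 (ENSMUSG00000001435.16), the multiplexin from which endostatin is cut, was the abundant exception to the rise with induction. Col18a1 had 66.95, 46.4 and 41.3 CPM in induced si-Zfp143 libraries and 35.0, 32.4 and 27.6 CPM in induced si-Control libraries, with 113, 121 and 121 CPM in uninduced si-Zfp143 libraries and 148, 130.0 and 107 CPM in uninduced si-Control libraries. Uninduced libraries were all above induced ones, and in induced cells all si-Zfp143 libraries were above all si-Control ones. Col18a1 fell with induction under si-Zfp143 (log2 fold change -1.20, SE 0.17; edgeR adjusted p = 2.1e-05) and under si-Control (log2 fold change -2.02, SE 0.17; edgeR adjusted p = 1.01e-07). With si-Zfp143 in induced cells it rose (log2 fold change 0.70, SE 0.17; edgeR adjusted p = 0.016), a call lost without induced si-Zfp143 replicate 1 or induced si-Control replicate 2 or 3 (edgeR adjusted p = 0.0587, 0.0607 and 0.0917).

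Col7a1, the chain of anchoring fibrils under skin, had 3.92, 3.96 and 3.35 CPM in induced si-Zfp143 libraries, 6.77, 5.27 and 6.03 CPM in induced si-Control libraries, 6.28, 5.31 and 7.12 CPM in uninduced si-Zfp143 libraries and 4.18, 3.13 and 1.84 CPM in uninduced si-Control libraries. It was thus above si-Control before induction and below it afterwards, without overlap in either state. It rose with si-Zfp143 in uninduced cells (log2 fold change 1.02, SE 0.25; edgeR adjusted p = 0.00625), and in induced cells the difference did not pass the test (log2 fold change -0.69, SE 0.25; edgeR adjusted p = 0.107). It passed there without both libraries that stand apart (log2 fold change -0.72; edgeR adjusted p = 0.0253) and with only the groups compared in the model (edgeR adjusted p = 0.048). With induction it fell under si-Zfp143 (log2 fold change -0.74, SE 0.25; edgeR adjusted p = 0.0159) and rose under si-Control (log2 fold change 0.97, SE 0.25; edgeR adjusted p = 0.00326); the fall was lost without replicate 3 of induced or of uninduced si-Zfp143 cells and with library size as the only scaling. Col17a1, a transmembrane chain of epithelial anchoring junctions, had 1.26, 0.945 and 1.07 CPM in uninduced si-Zfp143 libraries, against 0.380, 0.165 and 0.197 CPM in uninduced si-Control libraries. It rose there (log2 fold change 2.10, SE 0.42; edgeR adjusted p = 0.00101) and with induction under both siRNAs. Col28a1 rose with induction under si-Control, at least 4.39-fold against that floor, and was at or under 1.04 CPM in every library.

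Whether the siRNA effect differed between the states was tested as an interaction, the effect in induced cells minus that in uninduced cells. It was higher in induced cells for 2 of 30 chains and lower for 8, beside 10.6% and 11.8% of all genes. The 8 lower ones were Col1a1, Col2a1, Col5a2, Col5a3, Col7a1, Col8a1, Col11a2 and Col17a1, and the 2 higher ones Col3a1 and Col18a1. Thus 5 of the 10 fibrillar chains tested were lower and 1 higher, and 0 of 5 basement membrane and 0 of 4 FACIT chains passed. Col4a1 and Col4a2 passed as lower with the DESeq2 Wald test, the transcript length offset or the replicate block, and without the filter on low counts. Both also passed as lower when induced si-Zfp143 replicate 1 or uninduced si-Control replicate 1 was left out. Leaving out both libraries that stand apart, they passed at -0.75 and -0.72 (edgeR adjusted p = 5.33e-05 and 6.72e-05). Without both libraries Col4a4 passed as higher at 1.86 (edgeR adjusted p = 0.0284). Col4a1 alone also passed with limma-voom (adjusted p = 0.0498). Col8a1 had the smallest p, with a difference of -2.07 on the log2 scale (SE 0.16; edgeR adjusted p = 7.58e-07), and Col11a2 differed by -2.42 (SE 0.34; edgeR adjusted p = 0.000154). For Zfp143 itself the difference was 1.22 (SE 0.26; edgeR adjusted p = 0.00358). Without both libraries that stand apart 5 chains were higher and 12 lower, a run for which the share of all genes is not given here. The interaction calls of Col1a1, Col2a1, Col3a1, Col5a2 and Col18a1 were each lost when some single library was left out.

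Ratios of chains were compared within each library, which removes the effect of scaling between libraries. The pairs are chains that share a molecule, except Col3a1 and Col1a2, which belong to types III and I. Col1a1 was scarce beside Col1a2, although type I collagen is known to contain more of the first chain than of the second. Their TPM ratio was 0.0996 ± 0.00498 in induced si-Zfp143 cells, 0.142 ± 0.0120 in induced si-Control cells, 0.0234 ± 0.00432 in uninduced si-Zfp143 cells and 0.0138 ± 0.00259 in uninduced si-Control cells (SD, n = 3). The ratio was higher with induction under either siRNA, and with si-Zfp143 it was lower in induced and higher in uninduced cells, with no overlap in any of these comparisons.

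Col5a3 gained on Col5a1 most with the siRNA in uninduced cells. Their ratio was 0.289 ± 0.0356 in uninduced si-Zfp143 cells, against 0.0583 ± 0.00192 in uninduced si-Control cells (SD, n = 3). In induced cells it was 0.415 ± 0.0255 with si-Zfp143 and 0.285 ± 0.0242 with si-Control. The ratio of Col3a1 to Col1a2 was 0.855 ± 0.0397 in uninduced si-Zfp143 cells, against 1.59 ± 0.166 in uninduced si-Control cells, and 2.24 ± 0.0811 in induced si-Zfp143 cells, against 2.51 ± 0.0462 in induced si-Control cells. In both states the si-Zfp143 libraries were all below the si-Control ones.

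The ratio of Col4a1 to Col4a2 was 1.35 ± 0.0549 in induced si-Zfp143 cells and 1.46 ± 0.0323 in induced si-Control cells. In uninduced cells it was 1.00 ± 0.0106 with si-Zfp143 and 1.09 ± 0.0213 with si-Control. It was higher with induction under either siRNA and slightly lower with si-Zfp143 in either state, with no overlap in these comparisons. Col6a3 was well below Col6a1 after induction, at 0.129 ± 0.00412 with si-Zfp143 and 0.100 ± 0.0115 with si-Control, and closer to it in uninduced cells, at 0.390 ± 0.0875 with si-Zfp143 and 0.624 ± 0.100 with si-Control. Of 36 exact two-sided permutation tests on log2 ratios none could go below p = 0.1, the smallest value for 3 against 3 libraries, or 0.113 after Benjamini-Hochberg adjustment over the 36, so no ratio can pass a threshold of 0.05.

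**Figure D5:**
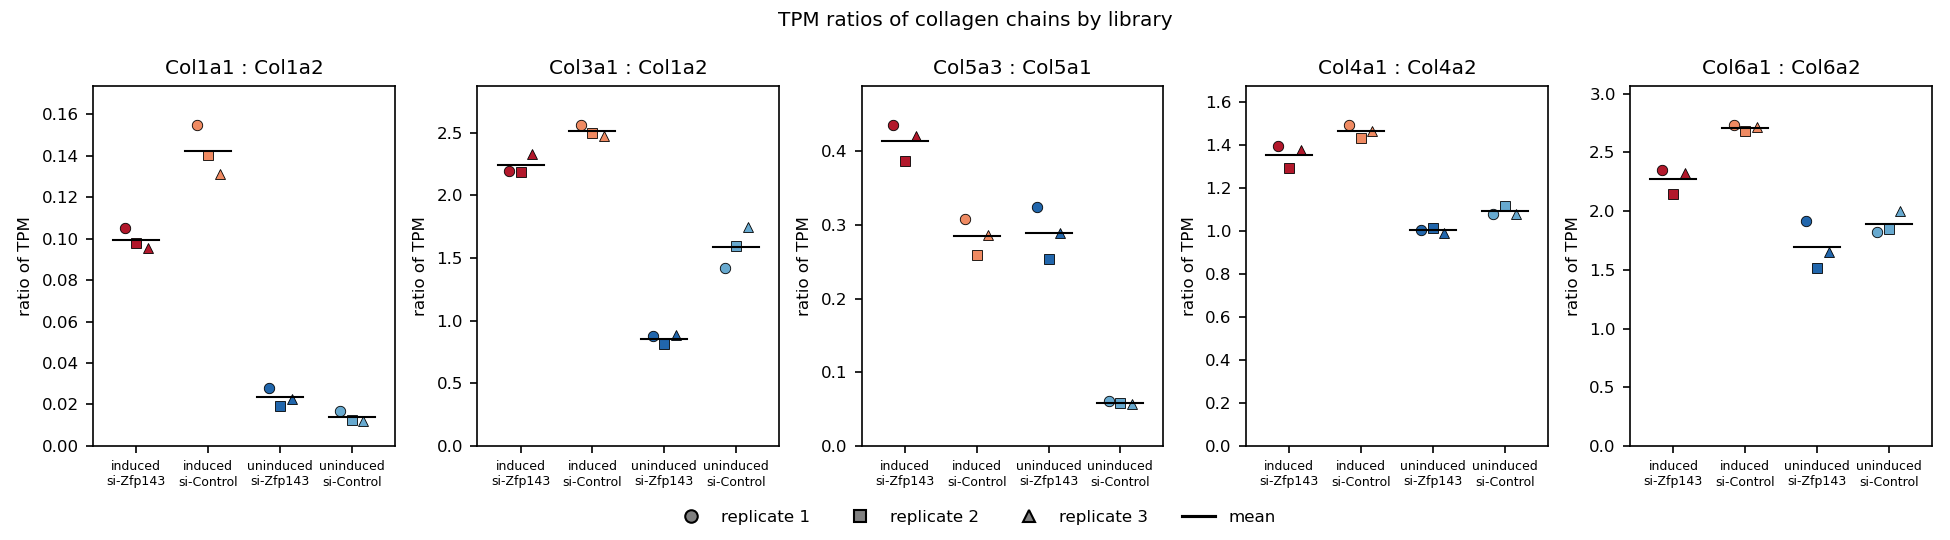
TPM ratios of collagen chains in each library, with symbols for replicates and bars for group means. Col5a3 relative to Col5a1 was lowest in uninduced si-Control cells, and Col3a1 relative to Col1a2 was lowest in uninduced si-Zfp143 cells; the axes start at 0.

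Genes that modify, export, process and degrade collagen were read from lists of known members. Over all genes si-Zfp143 raised 15.4% and lowered 17.1% in uninduced cells, and raised 3.73% and lowered 5.77% in induced cells. Among 14 tested genes for hydroxylation and glycosylation of collagen, si-Zfp143 in uninduced cells raised 5 and lowered 1, and in induced cells raised 0 and lowered 1. P4ha1, P4ha2 and P4ha3, the catalytic subunits of prolyl 4-hydroxylase, which stabilises the helix, rose in uninduced cells by 0.80 (SE 0.11), 1.63 (SE 0.13) and 2.03 (SE 0.26) on the log2 scale. P4ha1 fell in induced cells (log2 fold change -0.70, SE 0.11; edgeR adjusted p = 0.000706). Of 5 crosslinking genes 3 rose and 0 fell with si-Zfp143 in uninduced cells, led by Lox, a lysyl oxidase, with 456 ± 45.5 CPM against 109 ± 7.30 CPM in si-Control cells (SD, n = 3; log2 fold change 2.07, SE 0.16; edgeR adjusted p = 6.42e-07). In induced cells 0 of 5 passed.

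Of 10 genes for folding and export 3 rose and 2 fell with si-Zfp143 in uninduced cells, with Fkbp14, a prolyl isomerase of the endoplasmic reticulum, at 1.54 (SE 0.19), and 0 passed in induced cells. Over all genes 15.4% were higher and 17.1% lower in uninduced cells. The lower count of this list is near its share, and the higher count, of only 3 genes, is above it. Of 6 genes for propeptide removal 1 rose in each state, Pcolce, an enhancer of procollagen cleavage, in uninduced cells (log2 fold change 0.97, SE 0.16; edgeR adjusted p = 0.000514) and Pcolce2 in induced cells (log2 fold change 0.45, SE 0.13; edgeR adjusted p = 0.0423). Among 10 regulators of fibril assembly 2 rose and 1 fell in uninduced cells, and 0 rose and 5 fell in induced cells. Thbs2 and Bgn, a matricellular protein and a small proteoglycan, rose in uninduced cells by 0.96 (SE 0.12) and 1.17 (SE 0.18) and fell in induced cells by 0.80 (SE 0.12) and 0.93 (SE 0.17).

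The counts for receptors, degradation and transcription regulators stand beside the same 15.4% and 17.1% of all genes in uninduced cells and 3.73% and 5.77% in induced cells. Of 9 collagen receptors and uptake genes 0 rose and 2 fell with si-Zfp143 in uninduced cells, and 0 rose and 3 fell in induced cells. Ddr2, a receptor kinase for fibrillar collagen, fell in uninduced cells (log2 fold change -1.01, SE 0.17; edgeR adjusted p = 0.000603), and Itga11, an integrin subunit that binds fibrillar collagen, fell in induced cells (log2 fold change -1.43, SE 0.26; edgeR adjusted p = 0.00213). The 11 tested genes of the degradation list include the protease inhibitors Timp1, Timp2 and Timp3, so its counts mix degradation with its inhibition. Of these 11 genes 4 rose and 0 fell in uninduced cells, with the collagenase Mmp13 at 2.53 (SE 0.21), and 1 rose and 2 fell in induced cells, where Mmp13 was at -0.92 (SE 0.19). Timp1 averaged 261 CPM in uninduced si-Zfp143 cells and 113 CPM in uninduced si-Control cells. Among 12 transcription regulators of collagen genes 2 rose and 4 fell in uninduced cells and 1 rose and 0 fell in induced cells. Sox9 rose in uninduced cells by 0.78 (SE 0.15) and in induced cells by 0.60 (SE 0.15), and Smad3, a mediator of TGF-beta signals, fell in uninduced cells by 0.71 (SE 0.13).

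With induction, 36.0% of all genes rose and 30.1% fell under si-Zfp143, and 33.2% rose and 30.9% fell under si-Control. Of the 14 modifying genes 7 rose and 3 fell under si-Zfp143, and 11 rose and 0 fell under si-Control. All 10 regulators of fibril assembly rose under both siRNAs, 4 of 5 crosslinking genes rose and 0 fell under both, and 7 of 9 receptors rose under si-Zfp143 and 8 under si-Control, with 0 and 1 lower. Of 10 folding and export genes 6 rose and 2 fell under si-Zfp143, and 4 rose and 2 fell under si-Control. Propeptide removal counted 5 higher and 1 lower of 6 under si-Zfp143, and 4 and 1 under si-Control. The degradation list, inhibitors included, counted 6 higher and 3 lower of 11 under si-Zfp143, and 8 and 1 under si-Control. Transcription regulators counted 6 higher and 2 lower of 12 under si-Zfp143, and 5 and 3 under si-Control.

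Summed markers of other cell types also differed between the groups. Fibroblast markers summed to 1178 to 1271 CPM in induced si-Zfp143 libraries and 2038 to 2360.1 CPM in induced si-Control libraries, with 142 to 147 CPM in uninduced si-Zfp143 libraries and 92.5 to 145 CPM in uninduced si-Control libraries. Of these 10 genes Ly6a was the most abundant except in uninduced si-Zfp143 cells, where Pdgfra was, and Tcf21 and Dpp4 had no counts in any library. Smooth muscle markers, led by Acta2 in induced cells and by Notch3 in uninduced cells, summed to 1682 to 1925 CPM in induced si-Zfp143 libraries and 2439 to 3014 CPM in induced si-Control libraries, with 152 to 168 CPM in uninduced si-Zfp143 libraries and 73.2 to 123 CPM in uninduced si-Control libraries. Tendon markers, led by Egr1, summed to 499 to 612 CPM in induced si-Zfp143 libraries and 746 to 909 CPM in induced si-Control libraries, with 97.2 to 114 CPM in uninduced si-Zfp143 libraries and 83.2 to 126 CPM in uninduced si-Control libraries. The smooth muscle and tendon sums were thus higher in all induced libraries than in all uninduced ones. Most of the tendon sum was Egr1, and Tnmd and Thbs4 averaged at most 0.104 CPM in any group. Among smooth muscle markers Myh11 and Cnn1 averaged at most 0.366 CPM in any group. The osteoblast sum, nearly all of it Spp1, ran the other way with induction. It was 1945 to 2309.7 CPM in induced si-Zfp143 libraries and 2003 to 2248 CPM in induced si-Control libraries. In uninduced libraries it was 5284 to 6209 CPM with si-Zfp143 and 2483 to 4383 CPM with si-Control. Ibsp was at 0 in every library. Of 5 tested osteoblast markers 1 rose and 1 fell with induction under si-Zfp143, beside 36.0% and 30.1% of all genes. Under si-Control 1 rose and 2 fell, beside 33.2% and 30.9%. In uninduced cells 1 rose and 1 fell with si-Zfp143, beside 15.4% and 17.1%, and Runx2 averaged 29.4 CPM, against 48.3 CPM with si-Control. Schwann cell markers, mostly Erbb3 in induced cells and mostly Mbp and Ngfr in uninduced cells, stayed at or below 59.2 CPM, leukocyte markers, mostly Cd14, at or below 39.2 CPM with Adgre1 at 0 throughout, and endothelial markers, mostly Tek, at or below 5.32 CPM with Tie1 at 0 throughout. All libraries came from C2C12 cultures, and which of their cells made these marker transcripts or the collagen transcripts was not tested.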

How the data were processed

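Polyadenylated RNA of C2C12 cells was sequenced in 12 libraries, 3 in each of 4 groups. Per the submitters' processing notes, reads were handled with fastp 1.0.1, STAR 2.7.11b and Salmon on GRCm39; the version of Salmon and its annotation were not given in the sources used here. Per the file headers, the deposited table gives for each gene an estimated count, an effective transcript length in bases, an FPKM value that the authors derived and that was not used here, and a score column of TPM values; TPM recomputed from the deposited counts and lengths differed by at most 0.00131% for collagen genes above 0.05 TPM. The column names of induced si-Zfp143 replicates 2 and 3 have a pair of letters transposed and were matched to the libraries they otherwise name.

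The table has 78810 lines, of which 535 repeated an earlier gene ID, all with equal values, and were left out. Estimated counts were rounded. Genes were kept with filterByExpr of edgeR 4.0.16 (minimum count 10, minimum total 15), leaving 15030 tested and 63245 untested. After TMM scaling, edgeR's robust quasi-likelihood test was fitted to all 12 libraries with a mean for each group (8 residual degrees of freedom), in R 4.3.3. P-values were adjusted over all tested genes by the Benjamini-Hochberg method, and an adjusted p under 0.05 counts as a call. Standard errors came from the posterior quasi-likelihood variance. The fit was tested on simulated data. Alternatives were DESeq2 1.42.0 (its Wald test, and its size factors in edgeR), limma-voom (limma 3.58.1), library size alone, a transcript length offset, no filter, only the groups compared, a replicate block and leaving libraries out.

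The collagens with values in every library were the 3 of highest mean TPM in each class, the 2 of largest called fold in each direction and comparison with at least 1 TPM in the higher group, and partner chains of these. Other chains were named after their values were seen. The collagen genes, the pathway and marker lists and the tests were chosen with earlier results of these data known.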

Additional observations from a re-analysis of the deposited data

Results flagged for a closer look

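For 10 collagen chains and for Zfp143 the effect of si-Zfp143 differed between the states by the test of the difference itself (edgeR, adjusted over all genes tested). Each value is the log2 effect in induced cells minus that in uninduced cells. Among the fibrillar chains it was -2.42 for Col11a2, -1.18 for Col1a1, -3.23 for Col2a1, -0.62 for Col5a2, -1.48 for Col5a3 and 0.64 for Col3a1. Among the other chains it was -2.07 for Col8a1, -1.98 for Col17a1, -1.71 for Col7a1 and 0.82 for Col18a1. For Zfp143, the target, it was 1.22.

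The differences of Col11a2, Col5a3, Col7a1, Col8a1, Col17a1 and Zfp143 passed the test under every alternative run. That of Col3a1 was lost in 11 of the 12 runs that left out 1 library (edgeR adjusted p up to 0.120). That of Col2a1, the rarest of the 10 in induced cells, reached an adjusted p of 0.281 without induced si-Control replicate 2. Those of Col1a1, Col5a2 and Col18a1 reached adjusted p-values of 0.0816, 0.0582 and 0.0648 without single libraries. Explanations were not tested.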

How the results depend on the processing

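No chain changed direction where it was called in either fit, though uncalled values near 0 changed sign. Of 2392 values of single genes under alternatives, 2249 stayed on their side of the threshold, 65 lost and 78 gained a call. Leaving out each library in turn gave 7 to 12 chains higher and 2 to 5 lower with si-Zfp143 in uninduced cells, 1 to 3 and 0 to 2 in induced cells, 21 to 22 and 4 to 5 with induction under si-Zfp143, 25 and 2 under si-Control, and 0 to 5 and 5 to 11 for the difference between states.

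Without both libraries that stand apart, 14 chains were higher and 6 lower with si-Zfp143 in uninduced cells, 8 were lower in induced cells, and the difference between states was higher for 5. The shares of all genes called in the alternative runs are not given here. In induced cells 2 were lower with limma-voom, with no filter, with only the groups compared and with the replicate block. With no filter, which also tests chains otherwise left out, 4 fell with induction under si-Control, against 2 of the 30. The difference was higher for 1 chain with DESeq2 size factors and for 1 with the block. The cause was not tested.

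The labels do not pair libraries across groups. Same-numbered libraries correlated at -0.0963 to 0.306 and different-numbered ones at -0.279 to 0.249 after group means were removed. These ranges overlap and cannot tell whether same-numbered libraries share a culture or transfection. With the replicate block 14 chains were higher and 2 lower in uninduced cells and 3 and 2 in induced cells. Induction then gave 21 and 5 under si-Zfp143 and 25 and 2 under si-Control, and the difference between states 1 and 10. Chains under about 1 CPM rest on few counts, and 3 libraries a group limit every test.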
